A study of Mus musculus with 10 samples.

Results

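Trimethylation of histone H3 at lysine 27 (H3K27me3) was described over 10 genes of the matrix metalloproteinase (MMP) family in 5 mouse lymphoma lines: Mmp2, Mmp9, Mmp11, Mmp14, Mmp15, Mmp17, Mmp23, Mmp24, Mmp25 and Mmp28. The 10 genes were taken by symbol from the GENCODE annotation of the mouse genome (mm9), which holds 37310 genes, 22380 of them protein-coding. For each gene and line, the bases that lay in distinct H3K27me3 peaks were counted from 5 kb upstream of the transcription start site (TSS) to the end of the gene. The genes were selected on these same covered bases, since Mmp9 carries wide peaks that the parental list lacks, so the covered bases below are a description of the genes and were not tested.

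All 5 lines derive from 1 lymphoma line of the B lineage, of Eμ-Myc Cdkn2a-/- genotype on the C57BL/6J background, in which Myc is driven by the enhancer of the immunoglobulin heavy chain gene and the Cdkn2a tumour suppressor is deleted. The parental line was never selected with drug. R100, R500, R1000 and R4000 are sub-clones isolated after 10, 18, 23 and 37 days of growth in rising doses of mafosfamide, at 100, 500, 1000 and 4000 nM respectively, although the series description gives a total period slightly shorter than 37 days. Mafosfamide is a DNA-alkylating agent used in culture in place of cyclophosphamide, which needs activation in the liver. Chromatin was immunoprecipitated from cells grown without the drug. The study mentions biological replicates, but each line is represented here by 1 peak list, so the effect of the dose cannot be told apart from differences between clones or between single libraries, and no test between lines was possible.

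MMPs are zinc-dependent endopeptidases that cut collagens, laminins and other proteins of the extracellular matrix, and most are made as inactive proenzymes. The gelatinases Mmp2 and Mmp9 are secreted and carry fibronectin type II repeats that bind gelatin. Mmp11 and Mmp28 are secreted in a form already activated by furin-like proprotein convertases. Mmp14, Mmp15 and Mmp24 span the membrane, Mmp17 and Mmp25 are held there by a glycosylphosphatidylinositol (GPI) anchor, and Mmp23 has an amino-terminal anchor. H3K27me3 is laid down by Polycomb repressive complex 2 (PRC2), often over CpG-rich sequence at the starts of silent genes. The deposited lists hold neither transcript levels nor a measure of how strongly a base was enriched.

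Series of 5 values below follow the order parental line, R100, R500, R1000, R4000 unless another order is given. The lists held 10778, 25180, 21888, 9595 and 6820 distinct peaks, with a median width of 100 bp in every list. They covered 1.63, 5.04, 4.53, 1.61 and 1.07 Mb, so the R100 list covered 3.09 times and the R500 list 2.78 times as many bases as the parental list. Sequencing depth is unknown, and its part in these lengths was not tested. Only the R100 and R500 lists were deposited with every peak doubled, so list handling cannot be told apart from differences between lines either. Cdkn2a and its neighbour Cdkn2b held no covered base in any line, while the window of Myc held between 1800 and 4500 bp. Deleted sequence cannot hold peaks, so the empty Cdkn2a window does not show that the mark is absent. The Myc bases could not be assigned to the normal or to the enhancer-driven gene. Marker genes were covered in 0, 5, 4, 3 and 3 of 10 for B cells, 1, 3, 4, 0 and 1 of 6 for T cells, 1, 1, 0, 0 and 0 of 6 for myeloid cells and 1 of 4 in every line for erythroid cells, beside 9.72, 25.0, 20.2, 12.0 and 10.4% of all annotated genes. H3K27me3 is not expression, so these counts do not establish the cell type.

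Of the 10 MMP genes, the parental line covered 3 with at least 1 base, R100 and R500 each covered 8, and R1000 and R4000 each covered 4. Over all annotated genes the percentages were 9.72, 25.0, 20.2, 12.0 and 10.4, and over protein-coding genes alone 12.9, 34.2, 27.2, 16.1 and 14.0. MMP windows were longer than most, with a median of 23.9 kb against 10.4 kb for all genes and 20.4 kb for protein-coding genes. With at least 150 bp required, which is 3 steps of the 50-bp grid on which peaks were called, the counts were 2, 6, 7, 3 and 2, beside 5.82, 15.8, 12.7, 6.63 and 5.39% of all genes.

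Mmp28 and Mmp17 were covered in all 5 lines, as were 5.24% of all genes, and Mmp2 and Mmp25 in none, as were 68.4%. Mmp11, Mmp14 and Mmp15 were covered in R100 and R500 only, a pattern of 4.06% of all genes. Mmp9 and Mmp24 were covered in the 4 resistant lines and not in the parental line, as were 1.27% of all genes. Mmp23 was covered in the parental line, R100 and R500 and in neither R1000 nor R4000, as were 0.96%. The plot of covered bases by gene and line shows these patterns.

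**Figure D1:**
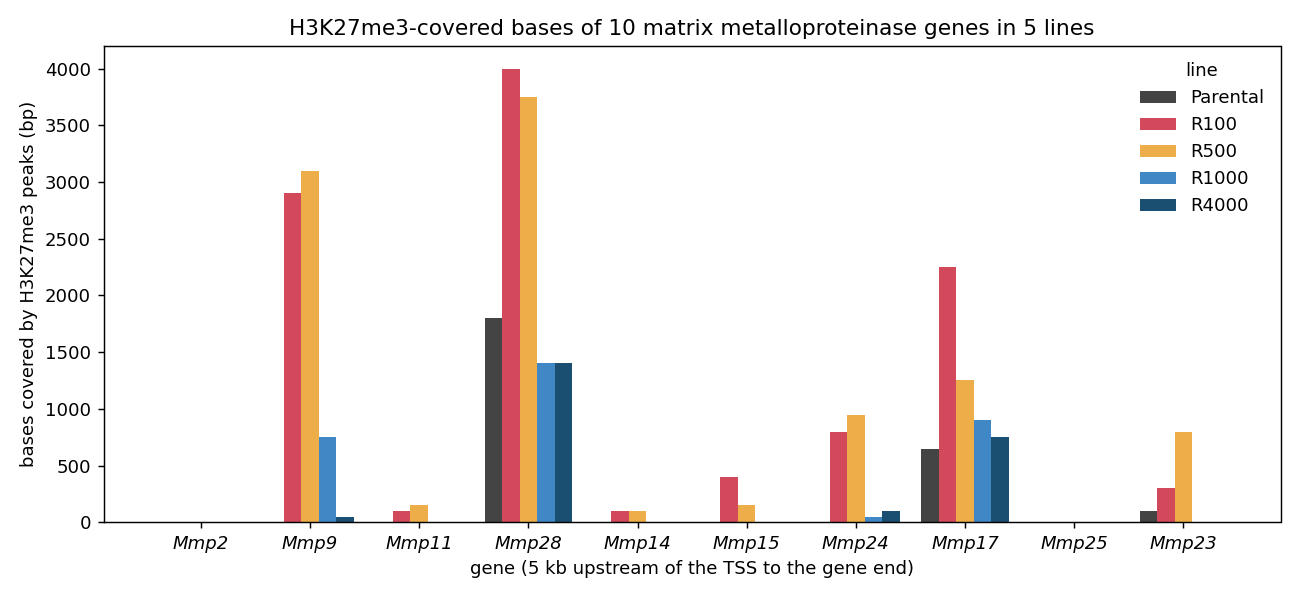
Bases covered by H3K27me3 peaks (y axis, bp) from 5 kb upstream of the TSS to the end of each of 10 MMP genes (x axis), with 1 bar for each of the 5 lines. Each bar is a single peak list, so there is no error bar. The tallest bars belong to Mmp28 in R100 (4000 bp) and R500 (3750 bp), and Mmp9 has no parental bar beside 2900 and 3100 bp in R100 and R500.

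Mmp9 (ENSMUSG00000017737.2, chr2:164766280-164781350, plus strand) encodes the gelatinase also known as type IV collagenase, a secreted enzyme of leukocytes and tumour cells. Its window held no base of the parental list, 2900 bp of the R100 list, 3100 bp of the R500 list, 750 bp of the R1000 list and 50 bp of the R4000 list. Coverage was thus highest in the lines from the lower doses and close to absent in the line from the highest dose. R100 held these bases in 7 peaks, R500 in 10, R1000 in 4 and R4000 in 1. Of all 37310 genes, 2 (0.00536%) had no parental base and at least as many covered bases as Mmp9 in both R100 and R500. Mmp9 was the only protein-coding gene among them, and the other was the long non-coding RNA gene Gm16869. The cutoffs were the values of Mmp9 itself, on which the genes were selected, so this rarity is not a result.

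The annotation gives Mmp9 a pair of coding transcripts with different starts. Mmp9-003 starts at the gene start and is short, whereas Mmp9-001, with 13 exons, starts 7439 bp further downstream. The peaks of Mmp9 fell mainly into 2 groups, namely within 5 kb before the start of Mmp9-003 and just inside Mmp9-001. The inner group centred on chr2:164774301-164776150, a stretch of 1850 bp that began 582 bp after the start of Mmp9-001. R100 covered it whole with a single peak, R500 covered 1250 bp of it, R1000 covered 500 bp, and neither the parental line nor R4000 covered any. In the R100 list, 129 of the 25180 peaks (0.512%) were as wide or wider than the 1850 bp peak. The widest Mmp9 peak of R500 was 1100 bp, and 2.39% of the peaks of that list were at least as wide. As the genes were selected for the wide peaks of Mmp9, these ranks are not a result.

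The inner stretch took in exons 2 to 6 of Mmp9-001 and the introns between them. R100 covered these 5 exons in full, which amounted to 856 bp of coding sequence. R500 covered exons 4 to 6 in full, with 116 bp of exon 2 and 31 bp of exon 3. R1000 covered exon 5 in full and 50 bp of exon 6. Exon 1 and exons 7 to 13 held no covered base in any line. The sequence below is part of the 500 bp, chr2:164775351-164775850, that the peaks of R100, R500 and R1000 all covered, and it is shown as part of the longest run of Mmp9 common to these 3 lines. It spans chr2:164775451-164775750 on the plus strand, 170 of its 300 bases are coding bases of exon 5 and the rest are intron, and capitals mark its 15 CpG dinucleotides.
Mmp9: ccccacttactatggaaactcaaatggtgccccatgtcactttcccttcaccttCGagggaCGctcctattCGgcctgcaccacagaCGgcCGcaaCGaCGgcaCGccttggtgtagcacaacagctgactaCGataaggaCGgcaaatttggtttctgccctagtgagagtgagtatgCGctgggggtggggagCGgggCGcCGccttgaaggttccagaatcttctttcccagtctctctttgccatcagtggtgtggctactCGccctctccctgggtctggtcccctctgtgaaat

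Upstream of Mmp9-003 R100 covered 850 bp, R500 1550 bp, R1000 200 bp and R4000 50 bp. R500 therefore held more than R100 before the gene and fewer within it (1550 against 2050 bp). At chr2:164764401-164765150, peaks of R100, R500 and R1000 covered 450, 550 and 150 bp. At chr2:164763601-164764100, R100 covered 300 bp and R500 450 bp. The stretch chr2:164765251-164765700 was covered in full by R500, and the only peak of R4000 at Mmp9, 50 bp wide, lay within it. Peaks of R100 and R500 shared 1900 bp over the whole window, which is 65.5% of the R100 bases and 61.3% of the R500 bases. Of the 750 bp of R1000, 600 bp (80.0%) were also covered in R100.

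**Figure D2:**
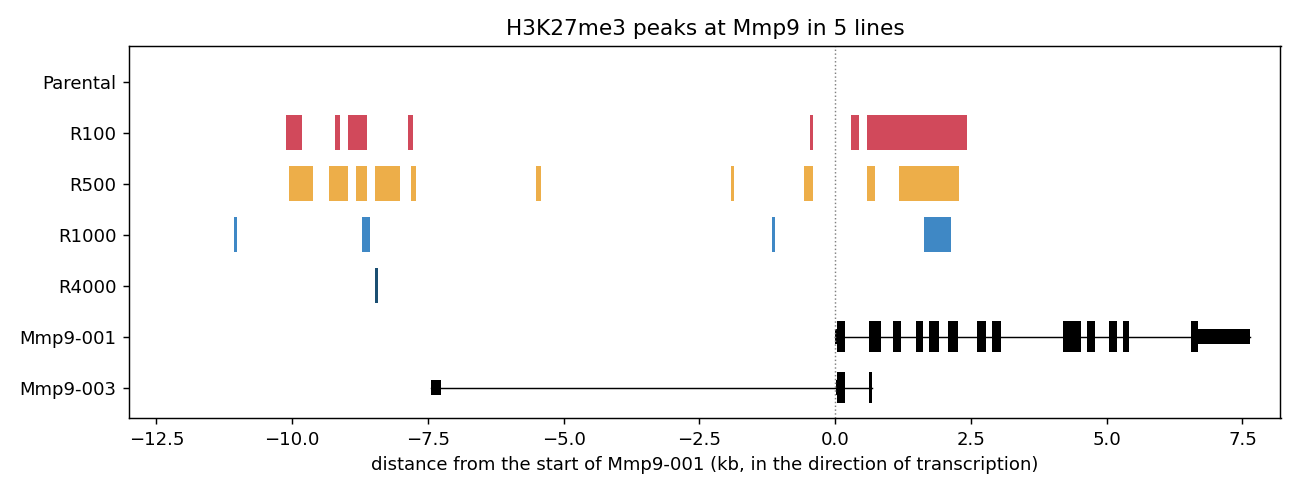
H3K27me3 peaks at Mmp9 (coloured bars, 1 row per line) and exons of the 2 coding transcripts (black boxes, with thinner boxes for untranslated parts), against distance from the start of Mmp9-001 (x axis, kb in the direction of transcription). The parental row is empty, and the widest bar, 1850 bp in R100, begins 582 bp after the start of Mmp9-001.

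The neighbours of Mmp9 held little of the mark. In the gene and 50 kb on each side, covered bases outside the Mmp9 window came to 100, 350, 350, 250 and 0 bp, against 0, 2900, 3100, 750 and 50 bp within it. Slc12a5, which encodes a neuronal potassium-chloride cotransporter and starts 4966 bp beyond Mmp9, held 0, 150, 100, 250 and 0 bp in its own window. Pcif1, which encodes a cap-modifying RNA methyltransferase, held 100 bp in each of R100 and R500 and 50 bp in R4000. Zfp335, Gm11458, Gm11459 and Ncoa5 held at most 150 bp in any line.

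The 5 protein-coding genes with covered bases most like those of Mmp9, by the smallest sum of absolute differences over the 5 lines, were Lhx5 (700 bp), Gm20532 (1000 bp), Gm10419 (1100 bp), Smarcd3 (1200 bp) and Tlx1 (1225 bp). Lhx5 and Tlx1 encode homeodomain transcription factors and Smarcd3 a subunit of the SWI/SNF chromatin remodelling complex. Lhx5, the nearest, held 250, 2750, 3050, 600 and 150 bp. Each of these genes held between 200 and 500 bp in the parental line, where Mmp9 held none.

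Mmp2 (ENSMUSG00000031740.7, chr8:95351227-95377316, plus strand), the other gelatinase, held no covered base in any of the 5 lines, although its window of 31.1 kb is longer than the 20.1 kb of Mmp9. The gelatinase genes thus stood at opposite ends of the set in R500 when covered bases were taken per kb of window, at 154 bp per kb for Mmp9 and 0 for Mmp2.

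Among the furin-activated secreted enzymes, Mmp28 (ENSMUSG00000020682.11, chr11:83254270-83276573, minus strand), also called epilysin, held the most covered bases per kb of window of the 10 genes in every line except R500, where Mmp9 held more (154 against 137 bp per kb). The parental line covered 1800 bp of its window, R100 4000 bp, R500 3750 bp, and R1000 and R4000 1400 bp each. R100 and R500 thus held 2.22 and 2.08 times the parental length, while R1000 and R4000 both held 0.778 times. The windows of all annotated genes together held 3.31, 2.95, 1.12 and 0.783 times the parental bases.

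The mark of Mmp28 centred on its TSS. The stretch chr11:83275601-83277800, from 1227 bp before the TSS into the first intron, held 1400, 1650, 2050, 1350 and 1000 bp. In R500 it was covered by a single peak of 2050 bp, and 83 of 21888 peaks (0.379%) were as wide or wider. The parental line already had a peak of 1050 bp there, and 79 of its 10778 peaks (0.733%) were as wide or wider. Lines also differed over the gene body. From the TSS to the gene end, which takes in part of the stretch at the TSS, R100 covered 2873 bp and R500 2273 bp. There the parental line covered 700 bp, R1000 800 bp and R4000 700 bp. In the 5 kb upstream the lengths were 1100, 1127, 1477, 600 and 700 bp. Near the end of the gene, chr11:83256001-83256400 was covered whole in R100, with 345 coding bases, and in no other line.

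The 200 bases of Mmp28 that peaks of all 5 lines covered are shown as the longest run of the gene common to every line. They lie in the first intron at chr11:83276001-83276200, 373 bp after the TSS, and are written on the minus strand with their 5 CpG dinucleotides in capitals.
Mmp28: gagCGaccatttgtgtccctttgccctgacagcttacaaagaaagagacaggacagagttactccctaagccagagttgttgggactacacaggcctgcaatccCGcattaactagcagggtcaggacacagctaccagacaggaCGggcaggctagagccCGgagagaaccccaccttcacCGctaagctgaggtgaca

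Mmp11 (ENSMUSG00000000901.8, chr10:75385967-75400678, minus strand), or stromelysin 3, was covered over 100 bp by R100, over 150 bp by R500 and not at all by the other lines. The 100 bp of R100 and 50 bp of R500 lay inside Chchd10, a mitochondrial protein gene on the opposite strand, so these peaks could not be assigned to Mmp11 alone. R100 and R500 shared no base at Mmp11.

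Of the transmembrane enzymes, Mmp24 (ENSMUSG00000027612.7, chr2:155601078-155644102, plus strand) held the most, with 0, 800, 950, 50 and 100 bp. Its window is the longest of the set at 48.0 kb, so the coverage came to 0, 16.7, 19.8, 1.04 and 2.08 bp per kb. Peaks of the 4 resistant lines lay at chr2:155600451-155600850, just upstream of the TSS, where they covered 250, 300, 50 and 100 bp. A further stretch in the first intron, chr2:155601701-155602050, was covered by R100 (350 bp) and R500 (300 bp) only. As at Mmp9, R100 and R500 both stood above R1000 and R4000. R500 stood above R100 at both genes, but in the gene body alone R100 held more at both, with 450 against 350 bp for Mmp24 and 2050 against 1550 bp for Mmp9.

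The 100 bases upstream of Mmp24 covered in R100, R500 and R4000 are shown for comparison with Mmp28 and Mmp17, with 2 CpG dinucleotides at chr2:155600601-155600700 on the plus strand, starting at -477 bp from the TSS.
Mmp24: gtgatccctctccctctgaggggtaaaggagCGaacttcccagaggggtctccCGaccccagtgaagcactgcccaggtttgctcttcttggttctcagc

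Mmp15 (ENSMUSG00000031790.6, chr8:97876168-97898193, plus strand), also called MT2-MMP, was covered over 400 bp by R100 and 150 bp by R500, and held no base in the other lines. Most of this lay at chr8:97876401-97876850, in the first exon, of which R100 covered 350 bp and R500 150 bp. The lines shared only 50 bp there, 12.5% of the R100 bases and 33.3% of the R500 bases. Those 50 bases, chr8:97876801-97876850, are coding sequence and hold 3 CpG dinucleotides, and they are shown as the only coding run of a transmembrane member that peaks of both lines covered.
Mmp15: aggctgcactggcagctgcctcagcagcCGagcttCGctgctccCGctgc

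Mmp14 (ENSMUSG00000000957.8, chr14:55050441-55060095, plus strand), or MT1-MMP, which activates pro-Mmp2 at the cell surface, held 100 bp in each of R100 and R500. These were single peaks at different positions, starting at -4640 and -4390 bp from the TSS, and both lay in the body of Mrpl52, a mitochondrial ribosomal protein gene. From the TSS to its end, Mmp14 held no covered base in any line.

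Of the GPI-anchored enzymes, Mmp17 (ENSMUSG00000029436.7, chr5:130090089-130114086, plus strand), or MT4-MMP, was covered in every line, with 650, 2250, 1250, 900 and 750 bp. All 4 resistant lines thus held more than the parental line, at 3.46, 1.92, 1.38 and 1.15 times its length. The main stretch lay just inside the gene. At chr5:130090151-130091550, from 62 bp after the TSS into the first intron, peaks covered 650, 1400, 1150, 800 and 750 bp. Of chr5:130092201-130092750, further into the intron, R100 covered 550 bp and R500 50 bp. Between these stretches, at chr5:130091801-130091950, R100 covered 150 bp and R1000 100 bp. R100 and R500 shared 1200 bp, which is 53.3% of the R100 bases and 96.0% of the R500 bases, so the R500 peaks lay almost wholly within those of R100.

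Unlike the shared run of Mmp28, that of Mmp17 was rich in CpG dinucleotides, which is why both are printed. It holds 19 CpG dinucleotides (capitals) in 300 bases of the first intron at chr5:130090951-130091250 on the plus strand, all covered in the 5 lines.
Mmp17: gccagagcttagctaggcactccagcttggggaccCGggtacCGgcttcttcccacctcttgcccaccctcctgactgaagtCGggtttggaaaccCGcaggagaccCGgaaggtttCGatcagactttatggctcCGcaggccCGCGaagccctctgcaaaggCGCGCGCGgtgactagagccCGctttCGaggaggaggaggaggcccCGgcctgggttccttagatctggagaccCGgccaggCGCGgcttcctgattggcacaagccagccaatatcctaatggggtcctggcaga

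Mmp25 (ENSMUSG00000023903.7, chr17:23766425-23782236, minus strand), or MT6-MMP, the other GPI-anchored enzyme and a protease of neutrophils, held no covered base in any line over a window of 20.8 kb.

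**Figure D3:**
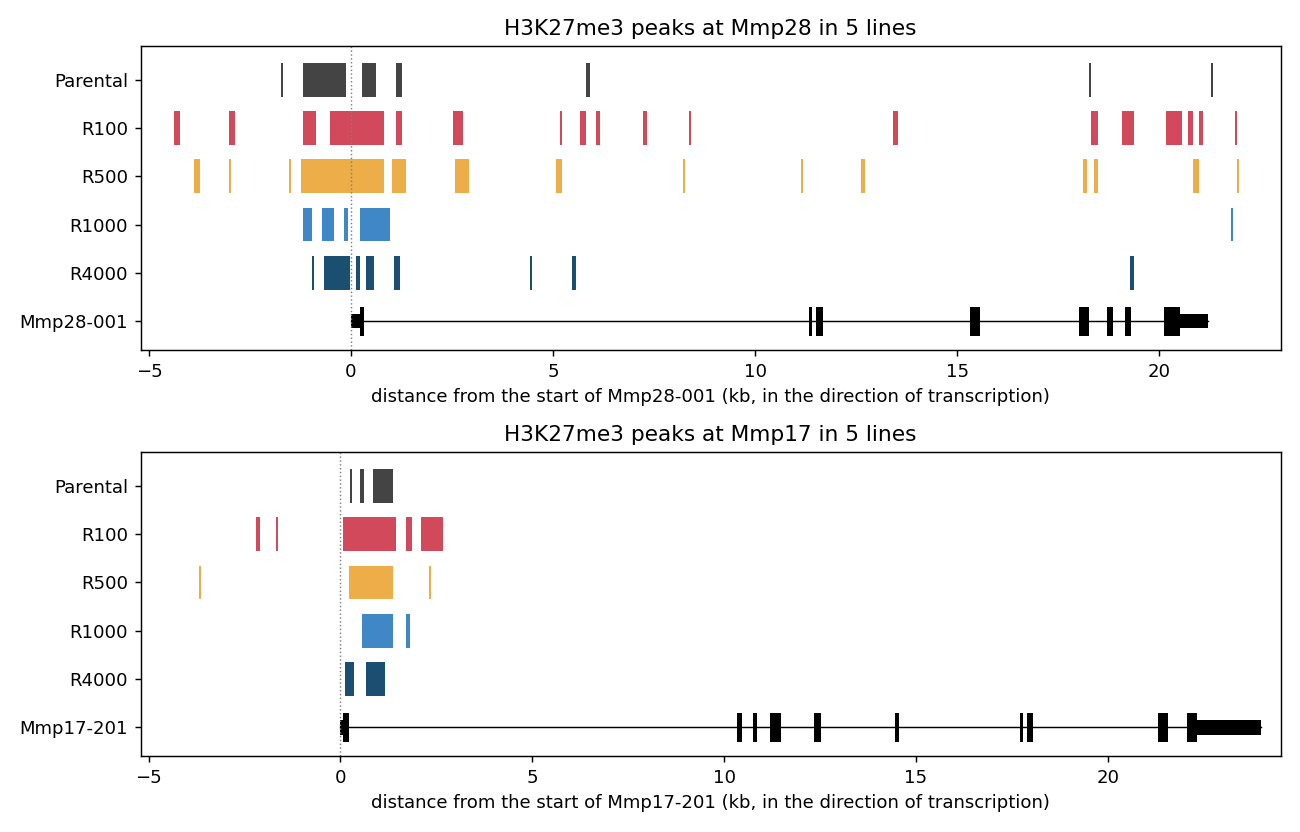
H3K27me3 peaks at Mmp28 (upper panel) and Mmp17 (lower panel), 1 row per line, with the exons of the named transcript as black boxes, against distance from that transcript's start (x axis, kb in the direction of transcription). All 5 lines have peaks around the Mmp28 start and just inside Mmp17. Further peaks along Mmp28 occur in every row and are more numerous in R100 and R500.

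Mmp23 (ENSMUSG00000029061.2, chr4:155024764-155027493, minus strand) is the shortest gene of the set, with a window of 7.73 kb. The parental line covered 100 bp of it, R100 300 bp and R500 800 bp, while R1000 and R4000 had no peak there. All of these bases lay upstream of the TSS, in chr4:155027751-155028550, which a single R500 peak covered in full. Both R100 peaks and the parental peak fell within the R500 peak, but those of R100 lay on either side of the parental one and shared no base with it. Per kb of window, Mmp23 reached 103 bp in R500, close to the 137 bp of Mmp28 and the 154 bp of Mmp9. The first of the R100 peaks, 150 bases at chr4:155027851-155028000 on the minus strand with 3 CpG dinucleotides, is shown as an upstream run of Mmp23 common to R100 and R500, which also shared the other R100 peak.
Mmp23: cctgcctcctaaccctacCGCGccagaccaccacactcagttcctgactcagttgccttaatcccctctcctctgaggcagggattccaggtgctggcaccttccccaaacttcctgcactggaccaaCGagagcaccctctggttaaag

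Summed over the 10 genes, peaks covered 2550, 10850, 10250, 3100 and 2300 bp. Relative to the parental line the sums stood at 4.25, 4.02, 1.22 and 0.902, again beside 3.31, 2.95, 1.12 and 0.783 for all annotated genes. Mmp9, Mmp28 and Mmp17 together held 96.1, 84.3, 79.0, 98.4 and 95.7% of the covered MMP bases, so these sums largely describe 3 genes. Per kb of window the 10 genes held 10.4, 44.2, 41.8, 12.6 and 9.37 bp, against 1.17, 4.02, 3.54, 1.3 and 0.892 bp for protein-coding genes. The median gene of the set held 0, 350, 475, 0 and 0 bp, while the median over all genes was 0 in every line. Since the set was chosen for its coverage, its level above the background is not a result.

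Against the parental line, 8 of the 10 genes held more covered bases in R100 and 8 did in R500, but only 3 in R1000 and 3 in R4000, beside 23.9, 19.0, 8.69 and 6.44% of all genes. Fewer bases were held by 0, 0, 2 and 2 genes, beside 1.92, 2.05, 5.55 and 7.12%. The 3 genes with more in both R1000 and R4000 were Mmp9, Mmp24 and Mmp17, and the 2 with fewer were Mmp28 and Mmp23. All 4 counts share the single parental list.

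Of the covered MMP bases, 92.2, 66.1, 77.6, 92.5 and 89.1% lay within 2 kb of the start of a coding transcript. A larger share of the R100 and R500 bases thus lay more than 2 kb from such a start than in the other lines. No such share over all genes is given beside it. Coding exons took 2.0% of the parental bases and 15.8% of the R100 bases, of which Mmp9 contributed 856 bp and Mmp28 624 bp. Introns took between 41.0 and 60.5% in the 5 lines. The parental bases recurred at 90.2% in R500, 72.5% in R100, 56.9% in R1000 and 49.0% in R4000, against 57.4, 54.4, 34.9 and 24.8% for the whole parental list. R100 and R500 shared 6200 bp over the 10 genes, 57.1% of the R100 bases and 60.5% of the R500 bases, where their whole lists shared 48.6 and 54.0%. Of the 2550 parental bases, 1800 lay in Mmp28 and 650 in Mmp17. As the set was chosen for its coverage, its higher sharing than in the whole lists is not a result.

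CpG content was computed from the mm9 sequence, which the choice of the genes did not use directly. That choice used covered bases, and covered genes had higher CpG ratios (medians below), so the ratios of the set are not independent of it. The observed/expected CpG ratio compares the number of CpG dinucleotides with that given by the numbers of C and G. Within 500 bp of the TSS it was 0.217 for Mmp9, lower than in the other 9 genes, and 23.9% of protein-coding genes had a lower value. The start of Mmp9-001 gave 0.223, nearly the same. Mmp11 had 0.264, Mmp2 0.475, Mmp25 0.507, Mmp28 0.558, Mmp14 0.634, Mmp23 0.65, Mmp15 0.73, Mmp17 0.777 and Mmp24 0.87, higher than 88.4% of protein-coding genes. Protein-coding genes with a covered base in at least 1 line had a median of 0.706 (n = 9584) and those with none a median of 0.338 (n = 12796). Mmp9 therefore combined wide coverage with CpG-poor starts, whereas Mmp24, with the most CpG-rich start of the set, held fewer covered bases per kb of window than Mmp9 in each resistant line, for example 16.7 against 144 bp per kb in R100. In a window of equal size, 2 kb to either side of the start, the order differed between lines, with 800, 900, 50 and 100 bp for Mmp24 in R100, R500, R1000 and R4000 and 550, 1180, 150 and 50 bp for Mmp9.

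The peaks of Mmp9 did not all lie on CpG-poor sequence. Its inner stretch of 1850 bp held 99 CpG dinucleotides at a ratio of 0.644. Stretches upstream of Mmp9 had ratios of 0.431, 0.416 and 0.292. For comparison, the 1400 bp stretch of Mmp17 had 0.702 with 110 CpG dinucleotides, the 2200 bp stretch of Mmp28 0.46 with 71, and the 450 bp stretch of Mmp15 0.849 with 52. The 800 bp stretch upstream of Mmp23 had 0.391 and the 400 bp stretch upstream of Mmp24 0.266. Pooled over whole lists, the ratio was 0.452 in the parental line and 0.534, 0.514, 0.556 and 0.608 in R100, R500, R1000 and R4000.

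**Figure D4:**
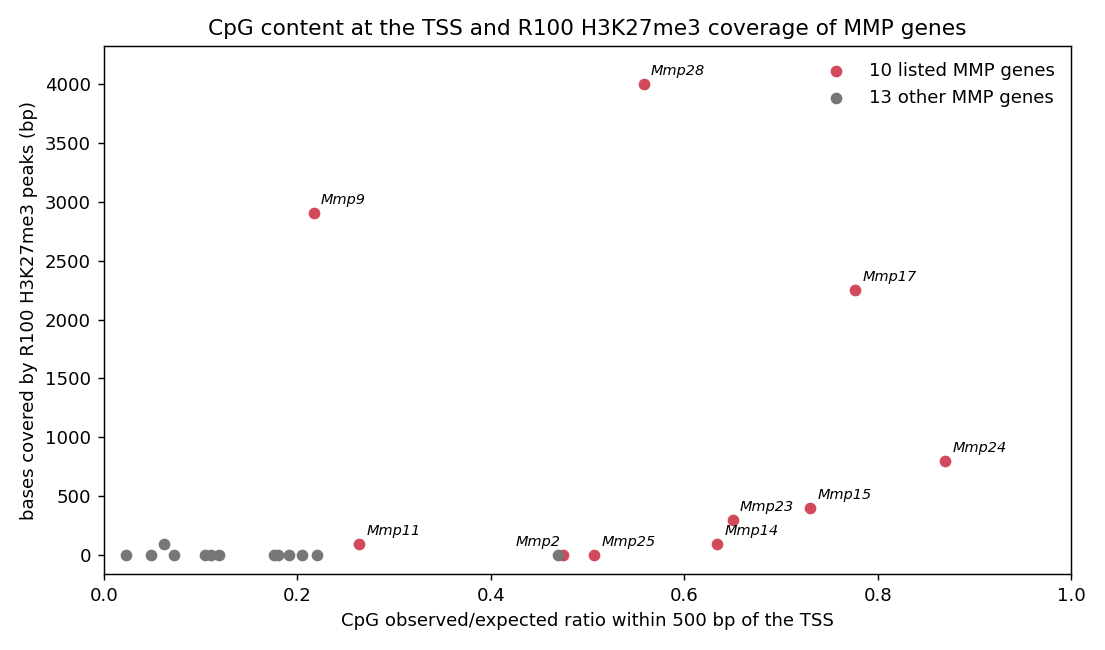
Observed/expected CpG ratio within 500 bp of the TSS (x axis) and bases covered by R100 H3K27me3 peaks (y axis, bp) for the 10 MMP genes (red, named) and 13 other MMP genes (grey), 1 point per gene. Mmp9 sits at the left with 2900 bp at a ratio of 0.217, and the other MMP genes lie at or near 0 bp with ratios up to 0.469. The 10 genes were chosen on covered bases, so the difference in height between the groups is not a result.

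The 13 other MMP genes of the annotation, left out when the 10 were chosen on covered bases, were nearly free of the mark. The contrast between these groups follows at least in part from that choice and is not a result. These 13 genes include collagenases, matrilysin and the stromelysins other than Mmp11, and many lie in a cluster on chromosome 9. Only Mmp20, which encodes the enamel protease enamelysin, held a peak, of 100 bp in R100, and counts of covered genes were 0, 1, 0, 0 and 0 of 13. Their CpG ratios at the TSS ranged from 0.0232 to 0.469 with a median of 0.119, against a median of 0.596 for the 10 genes described here. Since covered genes had higher ratios in general, this difference cannot be told apart from the choice of the 10 genes.

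Endogenous MMP inhibitors were covered in 1, 2, 3, 1 and 0 of 6 genes. Timp2, which binds both Mmp2 and Mmp14, held 0, 1000, 800, 100 and 0 bp. Reck, a membrane-anchored inhibitor, held 250, 750, 700, 0 and 0 bp, and Timp4 held 50 bp in R500. Timp1, Timp3 and A2m held none.

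Activators of MMP proenzymes were covered in 1, 4, 3, 2 and 2 of 8 genes. Furin, the convertase that cleaves Mmp11 and Mmp28, held 550, 1700, 1650, 750 and 350 bp, with more in R100 and R500 than in the other lines, as at Mmp28. Plaur, the urokinase receptor, held 200 bp in R100, and Plat, which encodes tissue plasminogen activator, held 150 bp in R100 and 100 bp in R4000. Pcsk7 in R100 and Pcsk6 in R500 held 100 bp each.

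Genes of the ADAMTS proteases, secreted relatives with thrombospondin repeats, were covered in 1, 4, 4, 0 and 0 of 19, and the largest value among them was 350 bp, for Adamts14 in R100. Matrix substrates were covered in 3, 5, 3, 5 and 3 of 12. Col2a1, the cartilage collagen gene, held 1350, 3750, 2800, 900 and 1100 bp. Agrn, which encodes a heparan sulphate proteoglycan of basement membranes, held 850, 1750, 1350, 750 and 950 bp. The median gene in each of these lists held 0 bp in every line, except 50 bp for the activators in R100 and 25 bp for the inhibitors in R500, beside 0 for all genes.

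**Figure D5:**
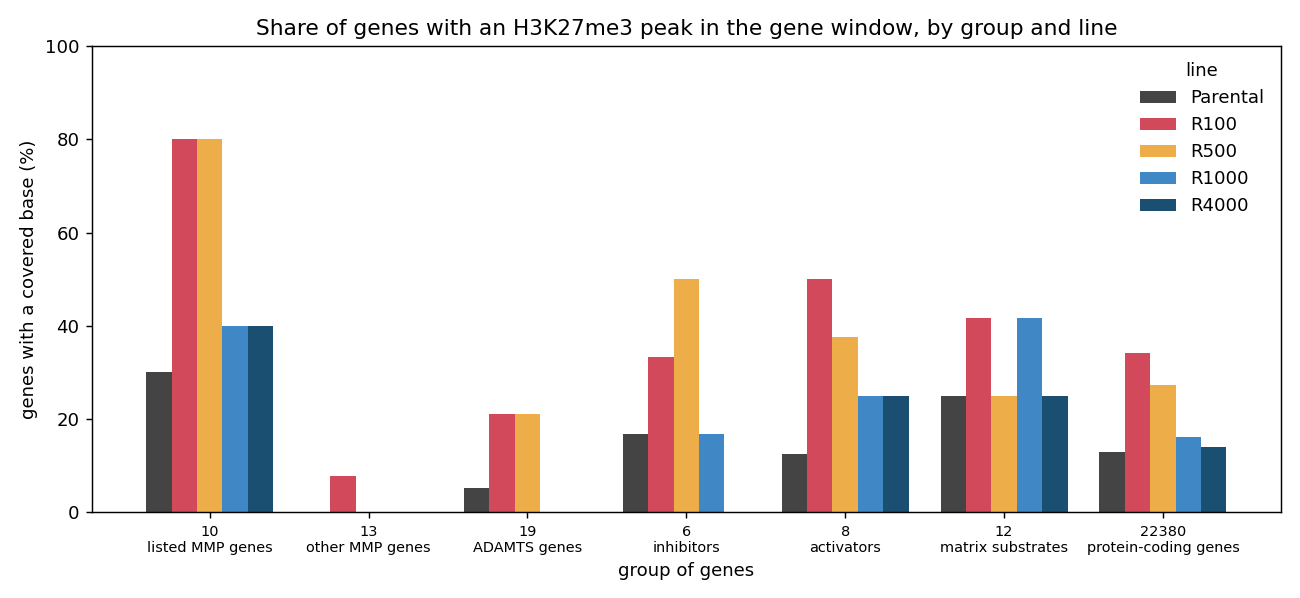
Percentage of genes with at least 1 covered base (y axis) in the 10 listed MMP genes, 5 related groups and all protein-coding genes (x axis, with the number of genes in each), 1 bar per line. The listed MMP genes reach 80.0% in R100 and R500, where protein-coding genes stand at 34.2 and 27.2%, and the other MMP genes show a single bar of 7.69%. The listed genes were chosen on covered bases, so their higher share is not a result.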

How the data were processed

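H3K27me3 ChIP-seq was analysed for 5 lines, with 1 sample per line mapped by its title. Reduced representation bisulphite sequencing samples (5) were not analysed here. The authors immunoprecipitated chromatin with an H3K27me3 antibody, sequenced it with input, called peaks with a Poisson model over tiled windows, and deposited 1 list of positions (chromosome, start and end, in bp) per line. Submitters' processing notes name Bowtie and mm9. The study's methods require at least 3 bins of 50 bp under a p-value limit for a promoter to count as enriched, but the lists hold peaks of a single bin. Whether that limit made the lists, and whether replicates were pooled in them, is not given in the sources used here. No count, score or p-value was deposited, so depth and precision are unknown, and a threshold can turn small differences in enrichment into presence or absence.

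Every peak stands 2 times in the deposited lists of R100 and R500 but not in the other lists, and duplicates were dropped. These are also the lists with the most covered bases, so a difference in how lists were made cannot be told apart from one between lines. Positions lay on a 50 bp grid, fitted NCBIM37 (mm9) on all 21 chromosomes in the lists, and left at least 150 bp between peaks. Covered bases were counted with Python 3.11.15, numpy 2.4.6 and pandas 2.3.3 from 5 kb upstream of the 5′-most TSS to the gene end in GENCODE vM1 on NCBIM37, and CpG ratios were read from that genome. The counting step was tested on simulated data, where 0 of 1000 windows differed from a base-by-base count. Figures used matplotlib 3.10.9. The 10 genes and the related lists were chosen with earlier results of these data known. All 10 genes are named. From each related list, at most 5 covered genes are named, by the longest covered length in any line. The values of 1 gene of these lists are not reported here. Alternatives were other gene windows, wider or joined peaks, lists of equal number and a minimum of 150 bp.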

Additional observations from a re-analysis of the deposited data

Results flagged for a closer look

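Mmp28 and Mmp23 had more covered bases than the parental line in some resistant lines and fewer in others. For Mmp28 the difference from the parental line was 2200 bp in R100 and 1950 bp in R500, against -400 bp in R1000 and -400 bp in R4000. For Mmp23 it was 200 bp in R100 and 700 bp in R500, against -100 bp in R1000 and -100 bp in R4000. Each line gave 1 list and all 4 differences share the parental list, so the opposite directions were not tested. Both negative differences of Mmp28 turned positive under an alternative, to 250 bp in R4000 with peaks within 1000 bp joined and to 100 bp in R1000 in the gene body alone. For Mmp23, R100 turned to -100 bp with lists of equal number.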

How the results depend on the processing

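No paired analysis was possible because each line has 1 list and no test was made. The settings below replaced 1 choice at a time, and lines are given in the order parental, R100, R500, R1000 and R4000. The sums over the 10 genes were 1550, 5150, 5100, 2050 and 1150 bp with peaks of at least 500 bp, 4400, 20873, 17550, 4250 and 4650 bp with peaks within 1000 bp joined, 1350, 7923, 5673, 2250 and 1450 bp in gene bodies alone, and 1200, 2927, 4577, 850 and 850 bp in the 5 kb upstream alone. Within 2 kb of the TSS, the sums were 2350, 5550, 6680, 2450 and 2050 bp. With only the 6820 widest peaks of each list kept, which gives all lists the same number, they were 2350, 8000, 8050, 2900 and 2300 bp.

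With peaks of at least 500 bp, 2, 3, 4, 3 and 2 genes were covered. More bases than in the parental line were then held by 3 genes in R100, 4 in R500 and 0 in R4000, and fewer by 1 gene in R1000 and 1 in R4000. With lists of equal number, 3, 5, 5, 3 and 4 genes were covered. More than the parental bases were then held by 5 genes in R100 and 5 in R500, and 1 held fewer in R100. In gene bodies alone, 2, 6, 6, 3 and 2 genes were covered, 1 held more in R4000, and 0 held fewer in R1000 and 0 in R4000. The share of all genes was not computed for these settings, so the counts have no background beside them. With a minimum of 150 bp, 2 genes were covered in R4000. With a difference from the parental line of at least 150 bp required, 0 held more in R4000, and 1 held fewer in R1000 and 1 in R4000.

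The direction of 4 differences between lines reversed. With peaks joined, R4000 minus parental became 250 bp for Mmp28 and -50 bp for Mmp17. With lists of equal number, R100 minus parental became -100 bp for Mmp23. In the gene body alone, R1000 minus parental became 100 bp for Mmp28. The cause was not tested. Leaving out bases in the bodies of other genes, an alternative chosen after seeing the data, gave 3, 6, 7, 4 and 4 covered genes. The share of all genes was not computed for that setting either. Mmp9 held no parental base and more bases in R100 and R500 than in R1000 and R4000 under each of these settings. From lists of equal number it held 2500 and 2550 bp in R100 and R500. Settings that drop peaks or narrow the window could not have given Mmp9 a parental base. As the genes were selected with this gain at Mmp9 known, its recurrence is not a test of it. Depth is unknown, so an uncovered gene is not shown to lack the mark.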
